A study of Mus musculus with 7 samples.

Results

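PC-2F are primary mouse cerebral pericytes, the cells that wrap brain capillaries, taken from the brain of C57BL/6 mice and transduced with viruses carrying Olig2 and Sox10. PC are the same cell type from the same strain with no treatment. The 2 populations were compared gene by gene, over all genes and over 59 gene lists, and the comparison held 469 of the 1124 cells of the series, which are 179 PC-2F cells and 290 PC cells. Members were the cell barcodes of the 2 libraries labelled PC-2F and PC with 500 or more UMIs (unique molecular identifiers, each standing for 1 captured mRNA molecule). The labels give a pericyte medium for PC and an oligodendrocyte progenitor medium for induced progenitors. PC-2F is not named there as one, and where it was grown in that medium, medium and transduction cannot be told apart. The labels give no vector promoter, no culture time, no animal age and no number of cultures, and neither library was said to be sorted for transduced cells. Each population was 1 library, so no test across samples exists, and every interval below covers the counting of UMIs or cells only. The other 5 libraries of the series (pOPC, MEF, MEF-2F, MEF-3F and PC-3F) served as context in the last part.

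Olig2, a basic helix-loop-helix factor, and Sox10, an HMG-box factor of the SoxE group, act together in the oligodendrocyte lineage, from the progenitor (OPC) that carries the PDGF receptor Pdgfra and the proteoglycan NG2 to the cell that makes myelin. Sox10 is also a factor of neural crest cells and of Schwann cells, the myelinating glia of peripheral nerve. Brain pericytes sit in the basement membrane of capillaries, are defined by the receptor Pdgfrb, and in culture make collagens and contractile actin like other mesenchymal cells.

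Levels are UMIs summed over all cells of a library and given as CPM, the UMIs of a gene per 1000000 UMIs of the library, with an exact 95% Poisson interval where one is printed. Ratios set PC-2F over PC, and the exact 95% interval after each comes from a binomial distribution given the sum of the pair of counts. Where PC or PC-2F had no UMI, the ratio is a bound against the 3 UMIs that a count of 0 allows. A gene was measured when it had 20 CPM and 10 UMIs or more in 1 of the 2 libraries, and a measured gene was called higher or lower at a ratio of 2-fold or more whose interval excluded 1. Reads came from mRNA 3′ ends, so levels of one gene were compared between libraries and not with those of another gene.

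PC-2F held 1200893 UMIs with a median of 6259 per cell, and PC held 1293349 UMIs with a median of 3775 per cell. UMIs of mitochondrially encoded genes made up 1.62% of PC-2F and 0.137% of PC. The PC matrix joined 2 blocks of barcodes, of 39 and 251 cells, that the labels do not explain. No barcode was shared by the 2 libraries. Clustering each library alone gave 4 clusters of 65, 51, 33 and 30 cells in PC-2F and 4 of 104, 99, 65 and 22 cells in PC, and levels within clusters are given where they matter. Counts above the low range were recovered less surely than small ones, and among the genes named below fewer than 75% of the PC-2F UMIs came from sure counts for Lcn2, Serpina3n, Trf, Fn1, Serpine2, Ccl2, Mmp3, Spp1, Actb and Fth1.

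Both transduced genes were found in PC-2F and neither in PC. Olig2 was at 191 CPM in PC-2F (interval 167 to 217) and 0 CPM in PC (0 to 2.85), at least 82.2-fold higher. Sox10 was at 251 CPM in PC-2F (interval 223 to 281) and 0 CPM in PC (0 to 2.85), at least 108-fold higher. To compare cells of unlike depth, each was thinned to 1000 UMIs, which left out 1 PC-2F cell and 23 PC cells below that depth. Olig2 was then detected in 16.3% of PC-2F cells (11.2% to 22.6%) and 0% of PC cells (0% to 1.37%). Without thinning, 45.8% of PC-2F cells had an Olig2 UMI. After thinning, Sox10 was detected in 21.9% of PC-2F cells (16.1% to 28.7%) and 0% of PC cells (0% to 1.37%). The 3′ reads do not tell vector transcripts from those of the endogenous genes. Both factors were at their lowest in the third PC-2F cluster, where Olig2 was at 30.4 CPM and Sox10 at 8.69 CPM, against 176 to 280 CPM and 282 to 330 CPM in the other clusters. Nkx6-2 (Nkx6.2 in the labels), the factor added in the 3F libraries, had 2 UMIs in PC-2F and 0 in PC.

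Of 14911 genes with a UMI in either library, 8277 were measured. PC-2F was higher for 1435 of them, or 17.3%, and lower for 1060, or 12.8%. Under a stricter rule, a ratio of 4-fold or more whose whole interval lay past 2-fold, 663 genes (8.01%) were higher and 348 (4.20%) lower. The split depended on which genes could be measured: 198 of the higher genes had no UMI in PC and 37 of the lower genes had none in PC-2F. Of the 7059 genes measured in PC itself, 518 (7.34%) were higher and 1060 (15.0%) lower. A gene measured through 1 library alone could be called in 1 direction only, so counts for each list are also given over the members measured in PC itself. That second count leaves out genes measured through PC-2F alone, which could be called higher only. It keeps genes measured through PC alone, which could be called lower only, and so all 1060 lower genes. For lower members it is therefore no check, and counts over genes measured in PC-2F itself are not given. The median log2 ratio of all measured genes was 0.04, with quartiles of -0.53 and 0.68, and it was -0.11 over the genes measured in PC itself. The list counts below stand beside these shares and medians, and no list was tested.

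**Figure D1:**
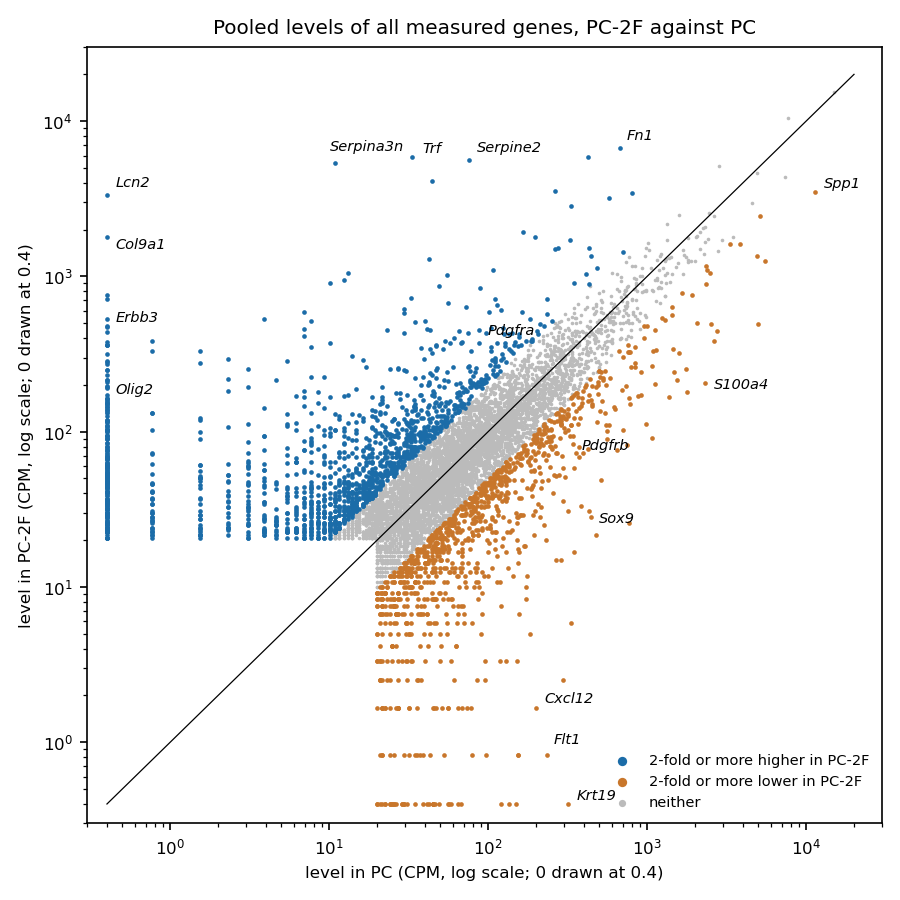
Level of each measured gene in PC-2F (vertical axis) against PC (horizontal axis), in CPM on log scales with a level of 0 drawn at 0.4. Blue genes were 2-fold or more higher in PC-2F (1435 genes), orange genes 2-fold or more lower (1060 genes) and grey genes neither; 198 blue genes lie on the left edge, at 0 in PC.

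Among genes at 100 CPM and 30 UMIs or more in the higher library, the 30 with the largest ratios towards PC-2F included glial, matrix and acute-phase genes. Lcn2, which encodes lipocalin 2, an iron-siderophore binding protein of the acute-phase response, was at 3330 CPM in PC-2F (interval 3228 to 3435) and 0 CPM in PC (0 to 2.85), at least 1436-fold higher. Col9a1, a chain of the cartilage collagen IX, was at 1801 CPM in PC-2F (interval 1726 to 1879) and 0 CPM in PC (0 to 2.85), at least 777-fold higher. Serpina3n, a secreted inhibitor of serine proteases, was at 5348 CPM in PC-2F and 10.8 CPM in PC (494-fold higher, interval 294 to 904), with its UMIs uncertain between near-identical Serpina3 copies. These genes differed in where they sat. Lcn2 was at 2671 to 4072 CPM in all 4 PC-2F clusters. Col9a1 was at 104 CPM in the third cluster against 1601 to 2625 CPM in the others, and Serpina3n at 547 CPM there against 4737 to 7514 CPM in the others.

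Of the other genes among these 30, several belong to glia. Enpp2 (autotaxin, which makes lysophosphatidic acid) was at 756 CPM in PC-2F and 0 CPM in PC, at least 326-fold higher. S100b, a calcium-binding protein of glia, was at 715 CPM in PC-2F and 0 CPM in PC, at least 308-fold higher. Erbb3, the neuregulin receptor that Sox10 controls in neural crest, was at 477 CPM in PC-2F and 0 CPM in PC, at least 206-fold higher. The neural adhesion protein gene Chl1 was at 470 CPM in PC-2F and 0 CPM in PC, at least 203-fold higher. Gpm6b, of the proteolipid family, was at 530 CPM in PC-2F and 3.87 CPM in PC, 137-fold higher (58.4 to 423). Ncald encodes a neuronal calcium sensor and had 396 UMIs in PC-2F and 1 in PC, 426-fold higher (76.1 to 16887). Tspan7, a tetraspanin, was at 439 CPM in PC-2F and 0 CPM in PC, and the collagen gene Col20a1 at 535 CPM in PC-2F and 0 CPM in PC. Atp1b2, a sodium pump subunit of glia, was at 361 CPM in PC-2F and 0 CPM in PC, and Sema3d, a secreted guidance protein, at 314 CPM in PC-2F and 0 CPM in PC. All of these were at 0 to 5 UMIs in PC.

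Not all of the 30 were glial. Fcgr2b, an inhibitory receptor for immunoglobulin G, was at 360 CPM in PC-2F and 0 CPM in PC, at least 155-fold higher, in a library in which none of 14 listed microglia and immune cell genes was measured. C3, the central complement component, was at 280 CPM in PC-2F and 0 CPM in PC. Mmp3, a secreted metalloproteinase, was at 276 CPM in PC-2F and 1.55 CPM in PC, and 99.7% of its UMIs lay in the third PC-2F cluster. It was detected in 4.49% of thinned PC-2F cells, and its log2 ratio was -0.32 with that cluster left out. Adam23, Tmem88b, Sort1, Cyfip2, Timp4 and Prex1 were at 131 to 293 CPM in PC-2F and had 0 to 3 UMIs in PC. Sort1 was at 293 CPM in PC-2F and 2.32 CPM in PC, and Tmem88b at 131 CPM in PC-2F and 0.773 CPM in PC. Sort1 encodes the sorting receptor sortilin, and Timp4 an inhibitor of metalloproteinases.

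The 30 genes with the largest ratios towards PC included keratins, a VEGF receptor and cytoskeletal genes. Flt1, the VEGF receptor 1, had 1 UMI in PC-2F and 303 in PC, which is 0.833 CPM in PC-2F and 234 CPM in PC, 281-fold lower (50.1 to 11149). Krt19, a simple-epithelial keratin, was at 0 CPM in PC-2F (interval 0 to 3.07) and 317 CPM in PC (287 to 349), at least 127-fold lower. Krt20, another keratin, was at 0 CPM in PC-2F and 149 CPM in PC, at least 59.7-fold lower, and Msln, the mesothelial surface protein mesothelin, at 0 CPM in PC-2F and 135 CPM in PC, at least 53.9-fold lower. The pair of keratins sat in different PC cells. Krt19 was at 945 CPM in the second PC cluster against 19.2 to 83.1 CPM in the others, and Krt20 was at 7.88 CPM there against 154 to 224 CPM in the others.

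Cxcl12, a chemokine of stromal cells, was at 1.67 CPM in PC-2F and 199 CPM in PC, 119-fold lower (32.7 to 990). Lox, the lysyl oxidase that crosslinks collagen and elastin, was at 5.83 CPM in PC-2F and 332 CPM in PC, 57-fold lower (27.4 to 143), and Cd24a, a surface sialoprotein, at 2.50 CPM in PC-2F and 297 CPM in PC, 119-fold lower (40.4 to 579). Fhl1 and Fhl2 encode LIM proteins of the actin cytoskeleton. Fhl1 was at 0.833 CPM in PC-2F and 153 CPM in PC, 184-fold lower (32.6 to 7298), and Fhl2 at 9.99 CPM in PC-2F and 172 CPM in PC, 17.3-fold lower (9.68 to 33.9). Lox, Cd24a and Fhl1 were at 956, 861 and 491 CPM in the second PC cluster, against 0 to 113 CPM in the other PC clusters. Sox9, a SoxE factor like Sox10, was at 28.3 CPM in PC-2F (interval 19.6 to 39.6) and 441 CPM in PC (406 to 479), 15.6-fold lower (11 to 22.7). Fosl1, an AP-1 subunit, was at 16.7 CPM in PC-2F and 347 CPM in PC, 20.8-fold lower (13.3 to 34.5). Fbln2, a matrix glycoprotein, was at 90.8 CPM in PC-2F and 1069 CPM in PC, 11.8-fold lower (9.69 to 14.5), and S100a4, a calcium-binding protein of fibroblasts, at 207 CPM in PC-2F and 2323 CPM in PC, 11.2-fold lower (9.84 to 12.8). In PC-2F, 94.1% of the Sox9 UMIs, 100% of the Fbln2 UMIs and 88.4% of the S100a4 UMIs were in the third cluster, which held 19.2% of all UMIs.

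The other genes of this set were 11.5-fold to 185-fold lower, or at 0 in PC-2F. Ptgs1, the cyclooxygenase 1 of prostaglandin synthesis, was at 15 CPM in PC-2F and 288 CPM in PC, and Lgals3, a galectin, at 33.3 CPM in PC-2F and 383 CPM in PC. Nptx1, a neuronal pentraxin, was at 6.66 CPM in PC-2F and 156 CPM in PC, Igfbp6, an IGF binding protein, at 3.33 CPM in PC-2F and 119 CPM in PC, and Npnt, a basement membrane ligand of integrins, at 3.33 CPM in PC-2F and 152 CPM in PC. Myof, a membrane repair protein of the ferlin family, was at 21.7 CPM in PC-2F and 474 CPM in PC, and Arhgdib, an inhibitor of small GTPases, at 30.8 CPM in PC-2F and 428 CPM in PC. Emilin2, an elastic fibre protein, was at 8.33 CPM in PC-2F and 173 CPM in PC, and Rai14, an actin-binding protein, at 11.7 CPM in PC-2F and 176 CPM in PC. Steap2, a metalloreductase, was at 20 CPM in PC-2F and 231 CPM in PC. Scarf2 was at 11.7 CPM in PC-2F and 143 CPM in PC, Tmem37 at 3.33 CPM in PC-2F and 130 CPM in PC, and Ankrd29 at 0.833 CPM in PC-2F and 154 CPM in PC. Ly6a (25.8 against 768 CPM, PC-2F against PC) and Klra4 (0 against 121 CPM) have near-identical copies in the mouse genome, so their UMIs are uncertain between copies.

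Promoters of these genes were read from RefSeq (GRCm38.p6, 250 bases before to 50 after the start), because 1 of the transduced factors binds Sox motifs and the other E-boxes. A promoter was listed for 21 of the 30 highest and 19 of the 30 lowest genes. On either strand, ACAAAG or ACAATG (2 forms of the Sox motif, which do not overlap each other) was held by 7 of the 21 (33.3%) and by 0 of the 19. The share was 18.5% of the 6166 measured genes with a promoter and 28.8% of all 27025 promoters. CAGATG or CATATG (E-box forms) was held by 4 of the 21 (19%) and 4 of the 19 (21.1%), against 11.4% of measured genes and 20.3% of all promoters. A match is a description of these letters, not a binding site. The sequences show the largest ratios with a Sox form (Col20a1 at chr2:180986285-180986584, Chl1 at chr6:103510626-103510925, and Sema3d at chr5:12382916-12383215, which holds a copy on each strand), the gene with both kinds (Tmem88b at chr4:155785825-155786124) and, for contrast, the low gene Fhl1 with a pair of E-boxes (chrX:56779433-56779732). Each is written 5′ to 3′ along its gene, which lies on the minus strand for Tmem88b and on the plus strand for the other 4, and capitals mark the motif letters on either strand.
Col20a1: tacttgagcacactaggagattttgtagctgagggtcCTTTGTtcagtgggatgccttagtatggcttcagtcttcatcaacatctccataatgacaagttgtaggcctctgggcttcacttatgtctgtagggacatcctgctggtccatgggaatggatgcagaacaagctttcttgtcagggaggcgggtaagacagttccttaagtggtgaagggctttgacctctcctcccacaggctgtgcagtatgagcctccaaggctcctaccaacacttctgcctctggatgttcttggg
Chl1: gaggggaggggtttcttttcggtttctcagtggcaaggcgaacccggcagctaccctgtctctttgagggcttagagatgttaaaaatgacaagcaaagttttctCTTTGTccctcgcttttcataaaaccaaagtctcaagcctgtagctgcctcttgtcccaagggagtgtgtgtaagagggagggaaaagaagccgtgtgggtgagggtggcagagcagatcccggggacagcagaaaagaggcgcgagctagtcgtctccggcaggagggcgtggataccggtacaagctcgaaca
Sema3d: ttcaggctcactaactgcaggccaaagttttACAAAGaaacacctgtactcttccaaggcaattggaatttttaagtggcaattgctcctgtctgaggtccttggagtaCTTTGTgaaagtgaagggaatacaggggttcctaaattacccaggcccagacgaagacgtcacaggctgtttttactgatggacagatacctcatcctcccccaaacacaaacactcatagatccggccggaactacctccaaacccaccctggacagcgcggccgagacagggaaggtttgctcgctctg
Tmem88b: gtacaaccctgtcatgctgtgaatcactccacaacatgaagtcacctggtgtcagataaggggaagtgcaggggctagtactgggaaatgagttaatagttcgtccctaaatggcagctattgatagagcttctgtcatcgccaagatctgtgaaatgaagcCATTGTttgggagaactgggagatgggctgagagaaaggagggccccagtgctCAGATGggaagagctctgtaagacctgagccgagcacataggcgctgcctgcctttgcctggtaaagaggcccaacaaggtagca
Fhl1: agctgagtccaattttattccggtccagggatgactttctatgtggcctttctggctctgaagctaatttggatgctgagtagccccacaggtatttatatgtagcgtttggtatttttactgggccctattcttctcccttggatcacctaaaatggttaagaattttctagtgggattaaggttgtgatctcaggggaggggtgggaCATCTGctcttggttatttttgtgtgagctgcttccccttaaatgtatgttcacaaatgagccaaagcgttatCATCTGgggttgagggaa

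OPC genes were mostly measured through PC-2F. Of 31 listed, 22 were measured, of which 19 were higher, 0 lower and 3 neither, with a median log2 ratio of 7.78, or 5.46 with genes at 0 in PC set to their bound. Only 7 of them were measured in PC itself, 4 higher and 0 lower, with a median of 2.07, and the other 15 could be called in 1 direction only. The list holds both transduced genes, and without Olig2 and Sox10 it had 17 of 20 measured members higher, with a median of 7.55 (5.38 at the bounds). Olig1, the partner of Olig2 in the lineage, was not transduced and was at 362 CPM in PC-2F (interval 329 to 398) and 0 CPM in PC (0 to 2.85), at least 156-fold higher. Cspg5, the brain proteoglycan neuroglycan C, was at 381 CPM in PC-2F and 0.773 CPM in PC, 492-fold higher (87.9 to 19482), and Mmp15, a membrane-bound metalloproteinase, at 333 CPM in PC-2F and 1.55 CPM in PC, 215-fold higher (59.2 to 1785). Bcan, the brain proteoglycan brevican, was at 286 CPM in PC-2F and 0 CPM in PC, at least 123-fold higher. Ptprz1, a receptor phosphatase of OPCs, was at 151 CPM in PC-2F and 0 CPM in PC, at least 65-fold higher. Pdgfra and Cspg4, the markers by which OPCs are commonly stained, were present in both libraries. Pdgfra was at 371 CPM in PC-2F (interval 337 to 407) and 88.1 CPM in PC (72.7 to 106), 4.20-fold higher (3.42 to 5.21), and Cspg4, the NG2 proteoglycan, at 674 CPM in PC-2F (interval 628 to 722) and 55.7 CPM in PC (43.6 to 70.1), 12.1-fold higher (9.50 to 15.6).

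Other members of the OPC list were higher as well. Gpr17, a receptor of progenitors about to differentiate, was at 111 CPM in PC-2F and 0 CPM in PC. Fabp7, a fatty acid binding protein of glial progenitors, was at 147 CPM in PC-2F and 0 CPM in PC. Sox6, a SoxD factor that holds progenitors undifferentiated, was at 91.6 CPM in PC-2F and 0 CPM in PC, and Gpr37l1, an orphan receptor of glia, at 102 CPM in PC-2F and 0 CPM in PC. Scrg1 was at 102 CPM in PC-2F and 0 CPM in PC, and Matn4, a matrilin, at 78.3 CPM in PC-2F and 0 CPM in PC. Ednrb, the endothelin B receptor, was at 29.1 CPM in PC-2F and 0 CPM in PC, C1ql1, a secreted C1q-like protein, at 24.1 CPM in PC-2F and 0 CPM in PC, and Traf4 at 172 CPM in PC-2F and 37.9 CPM in PC. Serpine2, an inhibitor of thrombin and plasminogen activators, reached 5620 CPM in PC-2F and 75.8 CPM in PC, 74.2-fold higher (60.8 to 91.5). The 3 that were neither were Vcan, the proteoglycan versican (576 CPM in PC-2F and 303 CPM in PC), S100a1 (157 CPM in PC-2F and 94.3 CPM in PC) and Sox5 (42.5 CPM in PC-2F and 29.4 CPM in PC). Of the 9 OPC genes not measured, Ncan, Pcdh15 and Lnx1 were at 0 in both libraries, and Sox8, Neu4, Cacng4, Nnat, Xylt1 and Tnr had 7 to 20 UMIs in PC-2F and 0 in PC.

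Of myelin and oligodendrocyte differentiation genes, 22 of 32 were measured, 19 higher, 1 lower and 2 neither, and a median of 5.39 (4.04 at the bounds). PC itself measured 9 of them, 6 higher and 1 lower. Cnp, the myelin enzyme CNPase, was at 580 CPM in PC-2F and 29.4 CPM in PC, 19.7-fold higher (14.2 to 28.1), and Trf, transferrin, an iron carrier made by oligodendrocytes, at 5864 CPM in PC-2F and 33.2 CPM in PC, 176-fold higher (131 to 244). The lineage regulators were present: Myrf, the factor that switches on myelin genes, was at 112 CPM in PC-2F and 3.09 CPM in PC, 36.1-fold higher (13.8 to 134), and Nkx2-2 at 20.8 CPM in PC-2F and 0 CPM in PC, at least 8.97-fold higher. Gjc3, a glial connexin, was at 378 CPM in PC-2F and 0 CPM in PC, at least 163-fold higher. Nfasc, the adhesion protein neurofascin, was at 144 CPM in PC-2F and 0 CPM in PC, and Gal3st1, the enzyme of sulfatide synthesis, at 108 CPM in PC-2F and 0 CPM in PC. Genes of mature myelin were detected too. Mbp, myelin basic protein, was at 29.1 CPM in PC-2F (interval 20.3 to 40.5) and 3.09 CPM in PC (0.843 to 7.92). Mag, an adhesion protein of the myelin sheath, was at 52.5 CPM in PC-2F and 0 CPM in PC. Fa2h and Aspa, enzymes of myelin lipid metabolism, were at 35 and 45.8 CPM in PC-2F and both at 0 in PC. Mog had 19 UMIs in PC-2F and 0 in PC. Cldn11, the tight-junction protein of myelin, was at 93.3 CPM in PC-2F and 0 CPM in PC, and within PC-2F it was at 270 CPM in the fourth cluster against 8.69 to 82.5 CPM in the others. The 1 lower member was Rras2, a small GTPase (72.4 CPM in PC-2F and 397 CPM in PC, 5.49-fold lower, interval 4.36 to 6.97).

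**Figure D2:**
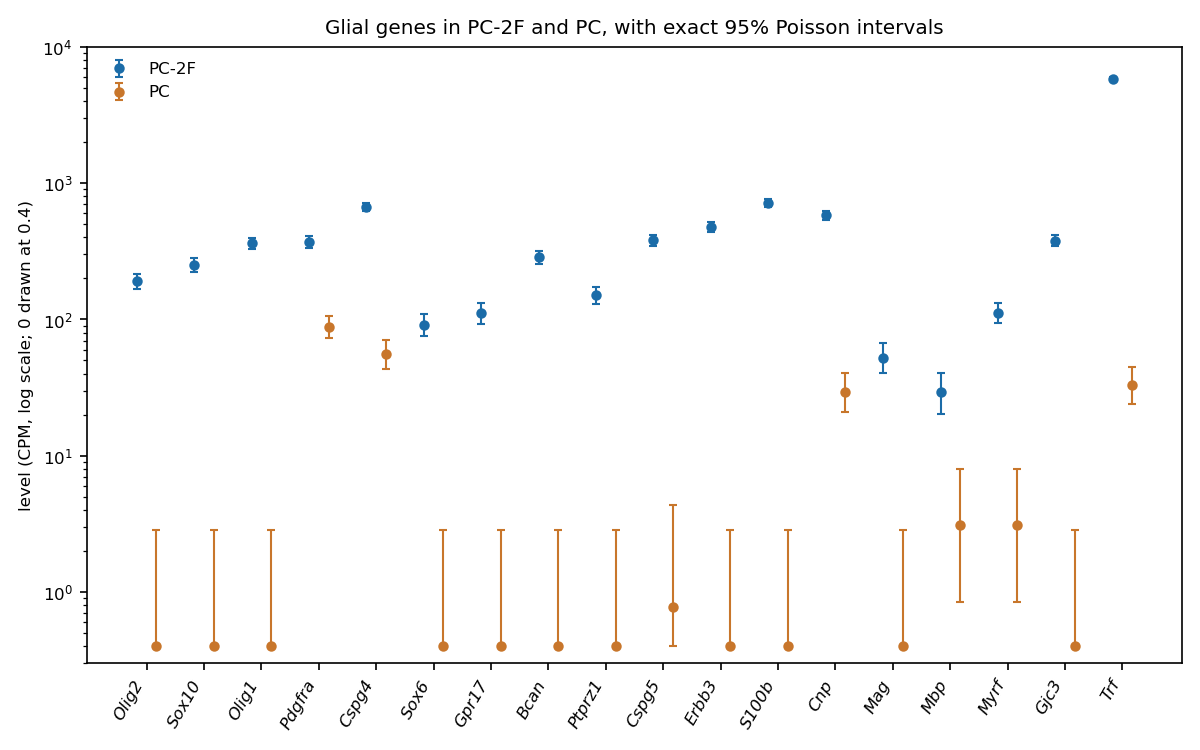
Level of 18 glial genes in PC-2F (blue) and PC (orange), in CPM on a log scale with 0 drawn at 0.4, with exact 95% Poisson intervals for 1 library each. Olig2, Sox10 and Olig1 were at 191, 251 and 362 CPM in PC-2F and 0 in PC, while Pdgfra and Cspg4 were present in both, at 371 and 674 CPM in PC-2F and 88.1 and 55.7 CPM in PC.

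Schwann cell and neural crest genes had 11 of 19 measured members higher, 1 lower and 7 neither, with a median log2 ratio of 3.12. Of these, 9 were measured in PC itself, 2 higher and 1 lower. Some members stand in other lists too, among them S100b and Ednrb. Pou3f1, a factor of promyelinating Schwann cells, was at 48.3 CPM in PC-2F and 0 CPM in PC. Tfap2a, a neural crest factor, was at 52.5 CPM in PC-2F and 0 CPM in PC, and Mal, a proteolipid of myelin, at 74.9 CPM in PC-2F and 0 CPM in PC. Sox2, a factor of neural stem cells and immature glia, was at 134 CPM in PC-2F and 0 CPM in PC, at least 57.8-fold higher. Ngfr and Egr2, which mark immature and myelinating Schwann cells, had 16 and 19 UMIs in PC-2F and 0 in PC. Cd9 and Gas7 were present in both populations. Cd9, a tetraspanin, was at 1492 CPM in PC-2F and 264 CPM in PC (5.64-fold higher, interval 5.02 to 6.35), and Gas7 at 635 CPM in PC-2F and 72.7 CPM in PC (8.74-fold higher, interval 7.05 to 10.9). Pmp22, Ncam1 and L1cam were neither, and Snai1, a factor of epithelial-mesenchymal transition, was at 14.2 CPM in PC-2F and 41.8 CPM in PC (2.95-fold lower, interval 1.68 to 5.43).

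Neural and glial transcription factors had 15 of 21 measured members higher, 3 lower and 3 neither, with a median log2 ratio of 2.03. Of these, 11 were measured in PC itself, 6 higher and 3 lower. Without the transduced Olig2, 14 of 20 were higher. Zfp536, a zinc finger factor, was at 117 CPM in PC-2F and 0 CPM in PC, at least 50.6-fold higher. Tcf7l2, a Wnt effector that oligodendrocytes use while they differentiate, was at 138 CPM in PC-2F and 30.2 CPM in PC, 4.58-fold higher (3.22 to 6.68). The glial factor Nfia was at 198 CPM in PC-2F and 48.7 CPM in PC, 4.07-fold higher (3.07 to 5.46). Zeb2 was at 262 CPM in PC-2F and 74.2 CPM in PC, 3.53-fold higher (2.80 to 4.49), and Etv5 at 159 CPM in PC-2F and 38.7 CPM in PC, 4.11-fold higher (3.00 to 5.74). The interneuron factors Dlx1 (5.83 CPM in PC-2F and 47.2 CPM in PC, 8.09-fold lower, interval 3.70 to 21) and Dlx2 (5.83 CPM in PC-2F and 43.3 CPM in PC, 7.43-fold lower, interval 3.38 to 19.3) were lower, as was Etv4 (30.8 CPM in PC-2F and 78.1 CPM in PC, 2.53-fold lower, interval 1.72 to 3.80). The Sox list had 4 of 6 measured members higher, 1 lower and 1 neither, with a median log2 ratio of 4.52. Of these, 3 were measured in PC itself, 1 higher and 1 lower. Without the transduced Sox10, 3 of 5 were higher and the median was 1.14. Its higher members were Sox10, Sox2, Sox6 and Sox4, and Sox9 was the lower one. Sox4 was at 104 CPM in PC-2F and 47.2 CPM in PC, 2.21-fold higher (1.61 to 3.05).

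Few immune and neuronal markers were measured, while 12 of 22 listed astrocyte genes and 5 of 11 listed endothelial genes were. No microglia or immune gene of 14 listed was measured: Cx3cr1, Tyrobp, Aif1, C1qa, Trem2 and Itgam were at 0 in both libraries, and the list summed to 12.5 CPM in PC-2F and 17.8 CPM in PC. Neuronal genes had 3 of 6 measured members higher, 2 lower and 1 neither, with a median log2 ratio of 2.19. Of these, 3 were measured in PC itself, 0 higher and 2 lower. Dcx, Elavl3, Stmn2, Snap25, Nefl and Rbfox3 were at 0 in both. The 3 higher were the cytoskeletal genes Mapt (71.6 CPM in PC-2F and 0 CPM in PC), Map2 (72.4 CPM in PC-2F and 3.09 CPM in PC) and Gap43 (59.1 CPM in PC-2F and 0 CPM in PC). Astrocyte genes had 4 of 12 measured members higher, 5 lower and 3 neither, with a median log2 ratio of 0.17. Of these, 8 were measured in PC itself, 0 higher and 5 lower. S100b, Aldoc (255 CPM in PC-2F and 3.09 CPM in PC) and Apoe (50 CPM in PC-2F and 1.55 CPM in PC) were among the higher. Sox9 and the metallothioneins Mt1 (336 CPM in PC-2F and 1134 CPM in PC) and Mt2 (101 CPM in PC-2F and 555 CPM in PC) were lower. Slc4a4, a bicarbonate transporter, was at 3.33 CPM in PC-2F and 95.9 CPM in PC, and Clu, clusterin, at 9.16 CPM in PC-2F and 34 CPM in PC. Clu had a log2 ratio of 0.67 without the second PC cluster. Aqp4, Slc1a2 and Gjb6 were at 0 in both libraries, and Gfap had 4 UMIs in PC-2F and 0 in PC. Endothelial genes had 1 of 5 measured members higher, 3 lower and 1 neither, with a median log2 ratio of -1.31. Of these, 4 were measured in PC itself, 0 higher and 3 lower. Against PC without its second cluster, 1 member was lower and the median was -0.29. Kdr, the VEGF receptor 2, was at 0 CPM in PC-2F and 24 CPM in PC (at least 9.59-fold lower), beside Flt1 above, while Pecam1 had 1 UMI in PC-2F and 3 in PC, and Tek was at 0 in both.

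The pericyte label was checked against pericyte genes in both libraries. The list had 3 of 9 measured members higher, 3 lower and 3 neither, with a median log2 ratio of -0.33. Of these, 7 were measured in PC itself, 1 higher and 3 lower. Kcnj8, Abcc9 and Higd1b, which mark brain pericytes in tissue, were at 0 in both libraries, as was Art3, and 8 members in all were at 0 in each. Pdgfrb was at 83.3 CPM in PC-2F (interval 67.8 to 101) and 343 CPM in PC (312 to 377), 4.12-fold lower (3.31 to 5.17), and 98.0% of its PC-2F UMIs lay in the third cluster (426 CPM there). Cd248, endosialin, was at 51.6 CPM in PC-2F and 115 CPM in PC (2.23-fold lower, interval 1.65 to 3.05), with 98.4% in that cluster, and Zic1, a zinc finger factor, at 9.99 CPM in PC-2F and 23.2 CPM in PC (2.32-fold lower, interval 1.15 to 4.98), though its log2 ratio was 0.15 against the first PC block alone. Rgs5, a regulator of G protein signalling by which pericytes are often identified, was at 46.6 CPM in PC-2F and 0 CPM in PC (at least 20.1-fold higher). Mcam was at 516 CPM in PC-2F (interval 476 to 559) and 7.73 CPM in PC (3.71 to 14.2), 66.8-fold higher (36.1 to 140), and Cspg4, which is a marker of both pericytes and OPCs, was the third higher member. Foxf2 (31.6 against 43.3 CPM, PC-2F against PC), Foxc1 (129 against 162 CPM) and Tbx18 (36.6 against 20.9 CPM) were neither. The list median turned positive, up to 0.83, in 3 of 14 alternatives: counting cells with a value above 0, taking the first PC block alone, and leaving out the second PC cluster.

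PC also carried epithelial and mesothelial genes. The list of keratin, epithelial and mesothelial genes had 0 of 8 measured members higher, 6 lower and 2 neither, with a median log2 ratio of -4.21. Of these, 8 were measured in PC itself, 0 higher and 6 lower. Besides Krt19, Krt20 and Msln, the lower members were Perp (0.833 CPM in PC-2F and 78.9 CPM in PC, 94.7-fold lower, interval 16.6 to 3777), a desmosome and p53 target gene, Cldn1 (6.66 CPM in PC-2F and 37.9 CPM in PC, 5.69-fold lower, interval 2.67 to 13.9) and the membrane linker gene Ezr (80.8 CPM in PC-2F and 262 CPM in PC, 3.25-fold lower, interval 2.58 to 4.11). Of the lower members, Ezr alone reached 20 CPM in PC-2F, and the others could be called lower only. Cdh1 and Dsp were at 0 in both. In cells thinned to 1000 UMIs, 10.7% of PC-2F cells and 53.9% of PC cells had a UMI of the list. Without the second PC cluster, an alternative chosen after seeing the data, 4 members were lower and Perp was higher, at a log2 ratio of 1.19.

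Smooth muscle contractile genes had 2 of 13 measured members higher, 3 lower and 8 neither, with a median log2 ratio of -0.18. Of these, 12 were measured in PC itself, 2 higher and 3 lower. Of the 2 higher members Acta2 lay just past 2-fold, and 1 member was higher with ratios shifted by a trimmed mean. Acta2, smooth muscle actin, was at 92.4 CPM in PC-2F (interval 76 to 111) and 45.6 CPM in PC (34.7 to 58.8), 2.03-fold higher (1.46 to 2.83), and its PC-2F level was 365 CPM in the third cluster against 18.6 to 38.6 CPM in the others. With that cluster left out its log2 ratio turned from higher to lower, at -0.70. Myl9, a myosin light chain, was at 346 CPM in PC-2F and 37.9 CPM in PC, 9.12-fold higher (6.77 to 12.5). Tpm2 (20 CPM in PC-2F and 152 CPM in PC, 7.62-fold lower, interval 4.98 to 12.2), Actn1 (147 CPM in PC-2F and 381 CPM in PC, 2.60-fold lower, interval 2.19 to 3.11) and Cnn2 (325 CPM in PC-2F and 776 CPM in PC, 2.39-fold lower, interval 2.12 to 2.69) were lower. Myh11, Cnn1 and Myocd, which define mature smooth muscle, were at 0 in both.

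Fibroblast genes had 6 of 22 measured members higher, 8 lower and 8 neither, with a median log2 ratio of -0.48. Of these, 19 were measured in PC itself, 3 higher and 8 lower. Without the third PC-2F cluster, 4 were higher and 14 lower, with a median of -1.90, and the largest PC-2F cluster alone gave 12 lower and a median of -1.72. Fn1, fibronectin, was at 6670 CPM in PC-2F (interval 6525 to 6818) and 676 CPM in PC (632 to 722), 9.87-fold higher (9.20 to 10.6). Mmp2, a gelatinase, was at 3180 CPM in PC-2F and 573 CPM in PC, 5.55-fold higher (5.13 to 6.01), and Postn, periostin, at 908 CPM in PC-2F and 10.1 CPM in PC, 90.3-fold higher (52.6 to 170). These were high in every PC-2F cluster: Fn1 at 2866 to 8513 CPM, Mmp2 at 2410 to 3746 CPM and Postn at 334 to 1420 CPM. Dcn, decorin, and Lum, lumican, are small proteoglycans of fibroblasts. Dcn was at 194 CPM in PC-2F and 0 CPM in PC (at least 83.6-fold higher), but 98.3% of its UMIs were in the third cluster, and Lum was at 71.6 CPM in PC-2F and 0.773 CPM in PC (92.6-fold higher, interval 16.2 to 3700). Lower were Lox, Ly6a, Fbln2 and S100a4 above, Loxl1 (8.33 CPM in PC-2F and 59.5 CPM in PC), Twist1 (74.9 CPM in PC-2F and 191 CPM in PC), Twist2 (6.66 CPM in PC-2F and 22.4 CPM in PC) and Pdpn (15.8 CPM in PC-2F and 47.9 CPM in PC). Col1a1 (372 CPM in PC-2F and 599 CPM in PC), Col1a2 (1449 CPM in PC-2F and 2790 CPM in PC) and the limb mesenchyme factor gene Prrx1 (289 CPM in PC-2F and 350 CPM in PC) did not reach 2-fold.

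Mesenchymal and mural transcription factors had 1 of 30 measured members higher, 16 lower and 13 neither (0 higher and 16 lower of the 28 measured in PC itself), and a median log2 ratio of -1.19, against a median of 0.04 over all genes. Foxd1, a factor of kidney stroma and pericyte precursors, was at 1.67 CPM in PC-2F and 78.1 CPM in PC, 46.9-fold lower (12.6 to 392). Foxc2, which acts in vessel and mesenchyme formation, was at 8.33 CPM in PC-2F and 85.8 CPM in PC, 10.3-fold lower (5.40 to 22.1). Tbx2 was at 7.49 CPM in PC-2F and 64.2 CPM in PC, 8.56-fold lower (4.30 to 19.4). Gata2 was at 6.66 CPM in PC-2F and 41 CPM in PC, 6.15-fold lower (2.91 to 15), and Gata6, a factor of vascular smooth muscle, at 21.7 CPM in PC-2F and 80.4 CPM in PC, 3.71-fold lower (2.40 to 5.95). Ebf2 (8.33 CPM in PC-2F and 46.4 CPM in PC), Aebp1 (262 CPM in PC-2F and 786 CPM in PC), and the orphan receptors Nr2f1 (154 CPM in PC-2F and 390 CPM in PC) and Nr2f2 (130 CPM in PC-2F and 315 CPM in PC) were lower. Runx2, a bone factor (18.3 CPM in PC-2F and 42.5 CPM in PC), Osr1 (12.5 CPM in PC-2F and 32.5 CPM in PC) and Foxs1 (20.8 CPM in PC-2F and 49.5 CPM in PC) were lower too. Of those named, Foxd1, Foxc2, Tbx2, Gata2, Ebf2, Runx2 and Osr1 were below 20 CPM in PC-2F and could be called lower only. The 1 higher member was Tead2, a partner of YAP (79.1 CPM in PC-2F and 17 CPM in PC, 4.65-fold higher, interval 2.90 to 7.77).

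A set of genes was found mostly in 1 group of PC-2F cells. The third PC-2F cluster, 33 cells or 18.4%, held 19.2% of UMIs. Of 1036 measured list members with 30 or more UMIs in PC-2F, 34 had 80% or more of their UMIs there. The same share over all measured genes was not computed, so this count has no background beside it. Of the 34, 16 were lower than PC in the pooled comparison, 11 higher and 7 neither. Spp1, osteopontin, was at 3497 CPM in PC-2F and 11381 CPM in PC, 3.25-fold lower (3.15 to 3.37), with 95.4% of its PC-2F UMIs in this cluster, where it was at 17393 CPM against 124 to 258 CPM in the other clusters. Nid1, the basement membrane linker nidogen, was at 216 CPM in PC-2F and 1532 CPM in PC, 7.11-fold lower (6.24 to 8.12), with 93.4% in the cluster. Bgn, biglycan, was at 889 CPM in PC-2F and 2328 CPM in PC, 2.62-fold lower (2.44 to 2.81), with 84.6% in the cluster. Efemp1 (253 CPM in PC-2F and 1757 CPM in PC) and Mgp, matrix Gla protein (242 CPM in PC-2F and 1474 CPM in PC), had 90.5% and 94.2% of their UMIs there. The clusters were made from the same genes, so these shares are a description. With the cluster left out, an alternative chosen after seeing the data, the count of genes at least 4-fold higher in PC-2F was 698 and that of genes at least 4-fold lower in PC-2F was 493, against 663 and 348 with all cells.

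**Figure D3:**
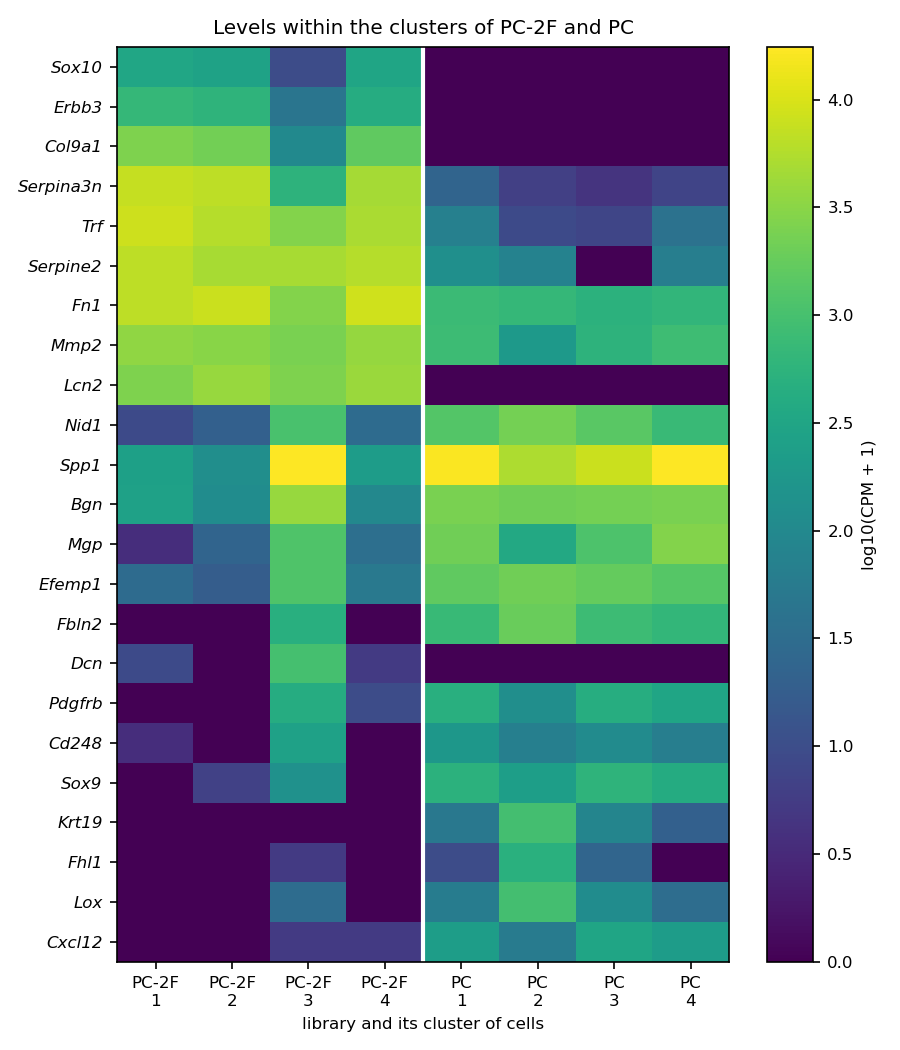
Level of 23 genes, as log10 of CPM plus 1 (colour scale), in the 4 clusters of PC-2F cells (left of the white line) and the 4 clusters of PC cells (right of it). Sox10, Erbb3 and Col9a1 were lowest in the third PC-2F cluster and at 0 in every PC cluster, while Spp1, Bgn, Mgp and Pdgfrb were far above the other PC-2F clusters in the third one, and Krt19, Fhl1 and Lox were highest in the second PC cluster.

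Matrix genes differed in both directions. Fibrillar collagens and their crosslinking enzymes had 9 of 26 measured members higher, 7 lower and 10 neither, with a median log2 ratio of 0.57. Of these, 22 were measured in PC itself, 5 higher and 7 lower. Collagen XI, a minor fibrillar collagen of cartilage, was higher in both chains, Col11a1 at 4114 CPM in PC-2F (interval 4000 to 4230) and 44.1 CPM in PC (33.4 to 57.1) (93.3-fold higher, interval 71.9 to 123) and Col11a2 at 94.1 CPM in PC-2F and 0 CPM in PC (at least 40.6-fold higher). Plod2, a lysyl hydroxylase, was at 447 CPM in PC-2F and 65.7 CPM in PC (6.80-fold higher, interval 5.40 to 8.66), and Col27a1 at 66.6 CPM in PC-2F and 0 CPM in PC. Lower were the lysyl oxidase genes Lox, Loxl1, Loxl2 (5.00 CPM in PC-2F and 54.9 CPM in PC, 11-fold lower, interval 4.81 to 30.9) and Loxl3 (121 CPM in PC-2F and 310 CPM in PC, 2.57-fold lower, interval 2.12 to 3.13). The other lower members were the prolyl hydroxylase genes P4ha2 (16.7 CPM in PC-2F and 68.8 CPM in PC) and P4ha3 (11.7 CPM in PC-2F and 94.3 CPM in PC), and Bmp1, a procollagen protease (89.9 CPM in PC-2F and 215 CPM in PC). Other collagens had 6 of 11 measured members higher, 3 lower and 2 neither, with a median log2 ratio of 2.99. Of these, 6 were measured in PC itself, 1 higher and 3 lower. All 3 chains of collagen IX were higher, with Col9a2 at 118 CPM in PC-2F and 0 CPM in PC and Col9a3 at 122 CPM in PC-2F and 1.55 CPM in PC beside Col9a1. Col16a1 was at 459 CPM in PC-2F and 41 CPM in PC (11.2-fold higher, interval 8.44 to 15.1). Col6a3 (265 CPM in PC-2F and 1076 CPM in PC, 4.06-fold lower, interval 3.59 to 4.60), Col6a2 (139 CPM in PC-2F and 317 CPM in PC, 2.28-fold lower, interval 1.90 to 2.75) and Col7a1 (0 CPM in PC-2F and 38.7 CPM in PC, at least 15.5-fold lower) were lower.

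Basement membrane genes had 7 of 18 measured members higher, 3 lower and 8 neither, with a median log2 ratio of 0.82. Of these, 13 were measured in PC itself, 3 higher and 3 lower. Fbln5, an elastic fibre protein, was at 1055 CPM in PC-2F and 13.1 CPM in PC, 80.3-fold higher (49.9 to 138), at 978 to 1214 CPM in all PC-2F clusters. Lama4, a laminin chain of vessels, was at 224 CPM in PC-2F and 9.28 CPM in PC (24.1-fold higher, interval 13.6 to 47.3), and Agrn, agrin, at 146 CPM in PC-2F and 6.96 CPM in PC (20.9-fold higher, interval 10.8 to 46.6). Nid1, Col4a1 (1619 CPM in PC-2F and 3300 CPM in PC, 2.04-fold lower, interval 1.93 to 2.15) and Tinagl1 (301 CPM in PC-2F and 700 CPM in PC, 2.33-fold lower, interval 2.06 to 2.64) were lower. Col4a2, the usual partner of Col4a1, was at 1361 CPM in PC-2F and 1197 CPM in PC and Sparc at 5119 CPM in PC-2F and 2844 CPM in PC, neither of them 2-fold. Proteoglycan genes had 13 of 19 measured members higher, 1 lower and 5 neither, with a median log2 ratio of 2.46. Of these, 10 were measured in PC itself, 4 higher and 1 lower. Besides those of the OPC list the higher ones included Hapln1, a hyaluronan link protein (271 CPM in PC-2F and 0 CPM in PC, at least 117-fold higher), and Acan, aggrecan (60 CPM in PC-2F and 0 CPM in PC). They also included the glypicans Gpc1 (376 CPM in PC-2F and 68 CPM in PC, 5.53-fold higher, interval 4.39 to 7.03), Gpc3 (61.6 CPM in PC-2F and 0 CPM in PC) and Gpc6 (93.3 CPM in PC-2F and 31.7 CPM in PC). Bgn was the lower member. Other matrix glycoprotein genes had 12 of 24 measured members higher, 5 lower and 7 neither, with a median log2 ratio of 1.01. Of these, 16 were measured in PC itself, 5 higher and 5 lower. They included Fbn2 (119 CPM in PC-2F and 1.55 CPM in PC), Matn2 (355 CPM in PC-2F and 47.2 CPM in PC), Emilin1 (466 CPM in PC-2F and 104 CPM in PC) and Tnc (43.3 CPM in PC-2F and 0 CPM in PC) among the higher. Wisp1 (6.66 CPM in PC-2F and 70.4 CPM in PC) and Ecm1 (50.8 CPM in PC-2F and 306 CPM in PC) were among the lower.

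Integrins, which bind these matrix proteins, had 6 of 12 measured members higher, 4 lower and 2 neither, with a median log2 ratio of 0.88. Of these, 7 were measured in PC itself, 1 higher and 4 lower. Higher were the α chains Itga4 (73.3 CPM in PC-2F and 0.773 CPM in PC), Itga8 (184 CPM in PC-2F and 6.96 CPM in PC, 26.4-fold higher, interval 13.7 to 58.6), and Itga1 (50.8 CPM in PC-2F and 0 CPM in PC). Itga9 (27.5 CPM in PC-2F and 3.09 CPM in PC) and Itgav (396 CPM in PC-2F and 189 CPM in PC, 2.10-fold higher, interval 1.79 to 2.46) were higher as well, with the β chain Itgb8 (50 CPM in PC-2F and 3.87 CPM in PC). Lower were Itga3, a laminin receptor chain (4.16 CPM in PC-2F and 62.6 CPM in PC, 15-fold lower, interval 6.19 to 47.6), and Itga5, the fibronectin receptor chain (10.8 CPM in PC-2F and 85.8 CPM in PC, 7.93-fold lower, interval 4.45 to 15.4). The other lower members were Itgb5 (17.5 CPM in PC-2F and 68 CPM in PC) and Itga6 (93.3 CPM in PC-2F and 254 CPM in PC). Itgb5 had a log2 ratio of 0.39 without the second PC cluster and 0.20 against the first PC block alone. Itgb1, the chain most of these pair with, was at 1642 CPM in PC-2F and 1011 CPM in PC, not 2-fold.

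Metalloproteinases and their inhibitors had 13 of 24 measured members higher, 5 lower and 6 neither, with a median log2 ratio of 1.56. Of these, 13 were measured in PC itself, 3 higher and 5 lower. The membrane-type genes Mmp15, Mmp16 (107 CPM in PC-2F and 2.32 CPM in PC) and Mmp17 (53.3 CPM in PC-2F and 0.773 CPM in PC) were higher, while Mmp14, also membrane-type, was lower (112 CPM in PC-2F and 287 CPM in PC, 2.55-fold lower, interval 2.09 to 3.13). Adamts1 (353 CPM in PC-2F and 104 CPM in PC, 3.38-fold higher, interval 2.78 to 4.14) and Adam17 (181 CPM in PC-2F and 69.6 CPM in PC, 2.60-fold higher, interval 2.02 to 3.36) were higher. The tissue inhibitors went apart. Timp4 was higher, and Timp1 (177 CPM in PC-2F and 360 CPM in PC), Timp2 (500 CPM in PC-2F and 2072 CPM in PC, 4.15-fold lower, interval 3.79 to 4.54) and Timp3 (34.1 CPM in PC-2F and 206 CPM in PC, 6.02-fold lower, interval 4.32 to 8.59) were lower. Plasminogen activator and serpin genes had 2 of 11 measured members higher, 5 lower and 4 neither, with a median log2 ratio of -0.94. Of these, 10 were measured in PC itself, 1 higher and 5 lower. At a minimum of 100 CPM, 1 was lower and the median was 0.76, while the largest PC-2F cluster gave a median of -2.43. Serpina3n and Serpine2 were the higher ones. The lower ones included Plaur, the urokinase receptor (1.67 CPM in PC-2F and 55.7 CPM in PC, 33.4-fold lower, interval 8.92 to 281), Serpinb2, an inhibitor of urokinase (1.67 CPM in PC-2F and 64.2 CPM in PC, 38.5-fold lower, interval 10.3 to 323) and Serpinb6a (110 CPM in PC-2F and 574 CPM in PC, 5.23-fold lower, interval 4.34 to 6.34).

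Adhesion molecule genes had 13 of 33 measured members higher, 8 lower and 12 neither, with a median log2 ratio of 0.22. Of these, 24 were measured in PC itself, 4 higher and 8 lower. Neural adhesion genes were among the higher: Chl1, Nfasc, Opcml (115 CPM in PC-2F and 0 CPM in PC), Cntn1 (89.1 CPM in PC-2F and 0 CPM in PC), Nrcam (231 CPM in PC-2F and 44.1 CPM in PC, 5.25-fold higher, interval 3.94 to 7.11) and Alcam (181 CPM in PC-2F and 8.51 CPM in PC, 21.2-fold higher, interval 11.6 to 43.2). The tetraspanin Cd81 was at 3447 CPM in PC-2F (interval 3342 to 3553) and 804 CPM in PC (756 to 855). The lower ones included Cd24a and Vcam1, a leukocyte ligand (14.2 CPM in PC-2F and 154 CPM in PC, 10.9-fold lower, interval 6.62 to 19). The cadherins Cdh2 (35 CPM in PC-2F and 99.7 CPM in PC, 2.85-fold lower, interval 2.00 to 4.14) and Cdh13 (26.6 CPM in PC-2F and 136 CPM in PC, 5.11-fold lower, interval 3.49 to 7.69) were lower, and so were the protocadherins Pcdh1, Pcdh9 (12.5 CPM in PC-2F and 92 CPM in PC) and Pcdh19 (63.3 CPM in PC-2F and 179 CPM in PC).

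TGF-β and BMP pathway genes had 6 of 28 measured members higher, 8 lower and 14 neither (1 higher and 8 lower of the 23 measured in PC itself), and a median log2 ratio of 0.04, the same median as all genes. Ligand genes went both ways. Tgfb2 (102 CPM in PC-2F and 9.28 CPM in PC, 11-fold higher, interval 6.10 to 21.9) and Tgfb3 (52.5 CPM in PC-2F and 19.3 CPM in PC) were higher, and Tgfb1 was lower (9.99 CPM in PC-2F and 30.2 CPM in PC, 3.02-fold lower, interval 1.55 to 6.33). Bmp7 was higher (85.8 CPM in PC-2F and 3.09 CPM in PC, 27.7-fold higher, interval 10.5 to 104), and Bmp2 was lower (16.7 CPM in PC-2F and 64.2 CPM in PC, 3.85-fold lower, interval 2.34 to 6.63). The receptor gene Tgfbr1 was higher (55 CPM in PC-2F and 7.73 CPM in PC, 7.11-fold higher, interval 3.63 to 15.5). Grem1, which encodes a BMP antagonist, was lower (24.1 CPM in PC-2F and 102 CPM in PC, 4.23-fold lower, interval 2.81 to 6.55). The inhibitory Smads were lower, Smad6 at 4.16 CPM in PC-2F and 41.8 CPM in PC (10-fold lower, interval 4.04 to 32.1) and Smad7 at 35.8 CPM in PC-2F and 81.2 CPM in PC (2.27-fold lower, interval 1.58 to 3.31). Id1 was lower (120 CPM in PC-2F and 281 CPM in PC, 2.35-fold lower, interval 1.93 to 2.87) and Id2 higher (179 CPM in PC-2F and 65.7 CPM in PC, 2.72-fold higher, interval 2.11 to 3.54). Targets of TGF-β and of the mechanosensor YAP had 2 of 17 measured members higher, 5 lower and 10 neither, with a median log2 ratio of -0.08. Of these, 16 were measured in PC itself, 2 higher and 5 lower. Ankrd1 was at 11.7 CPM in PC-2F and 99.7 CPM in PC (8.56-fold lower, interval 4.92 to 16.1), while Ctgf, another classical target, was at 1242 CPM in PC-2F and 738 CPM in PC and Cyr61 at 342 CPM in PC-2F and 259 CPM in PC, neither 2-fold.

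Notch pathway genes had 5 of 11 measured members higher, 2 lower and 4 neither, with a median log2 ratio of 0.95. Of these, 6 were measured in PC itself, 0 higher and 2 lower. The ligand gene Jag1 was at 112 CPM in PC-2F and 5.41 CPM in PC (20.8-fold higher, interval 9.81 to 52.6). Hey1, a target, was at 21.7 CPM in PC-2F and 0 CPM in PC (at least 9.33-fold higher), and Rbpj, the DNA-binding partner of Notch, at 59.1 CPM in PC-2F and 245 CPM in PC (4.15-fold lower, interval 3.20 to 5.44). Wnt pathway genes had 7 of 18 measured members higher, 3 lower and 8 neither, with a median log2 ratio of 0.62. Of these, 14 were measured in PC itself, 3 higher and 3 lower. Nkd2, an inhibitor of Dishevelled, was at 353 CPM in PC-2F and 7.73 CPM in PC (45.7-fold higher, interval 24.6 to 95.9). The receptor gene Fzd9 was at 64.1 CPM in PC-2F and 6.19 CPM in PC (10.4-fold higher, interval 5.01 to 24.9), and the secreted antagonist gene Dkk2 at 0 CPM in PC-2F and 44.8 CPM in PC (at least 18-fold lower).

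Receptor tyrosine kinases had 5 of 20 measured members higher, 6 lower and 9 neither, with a median log2 ratio of -0.10. Of these, 16 were measured in PC itself, 2 higher and 6 lower. The PDGF receptors moved in opposite directions, with Pdgfra higher and Pdgfrb lower as given above. Kit was higher (40.8 CPM in PC-2F and 0 CPM in PC, at least 17.6-fold higher) while its ligand gene Kitl was lower (42.5 CPM in PC-2F and 185 CPM in PC, 4.35-fold lower, interval 3.20 to 6.01). Met, the hepatocyte growth factor receptor, was at 0 CPM in PC-2F and 42.5 CPM in PC (at least 17-fold lower), and Epha2 at 11.7 CPM in PC-2F and 47.2 CPM in PC (4.05-fold lower, interval 2.24 to 7.83). Growth factor genes had 5 of 18 measured members higher, 8 lower and 5 neither, with a median log2 ratio of -0.71. Of these, 15 were measured in PC itself, 2 higher and 8 lower. The lower ones included Figf, which is Vegfd (1.67 CPM in PC-2F and 68 CPM in PC, 40.9-fold lower, interval 11 to 343), Vegfa (33.3 CPM in PC-2F and 79.6 CPM in PC, 2.39-fold lower, interval 1.64 to 3.54) and Vegfc (8.33 CPM in PC-2F and 24.7 CPM in PC). The neurotrophin gene Bdnf was lower (24.1 CPM in PC-2F and 92 CPM in PC, 3.81-fold lower, interval 2.52 to 5.93). Csf1, the macrophage growth factor, was at 151 CPM in PC-2F and 779 CPM in PC, 5.17-fold lower (4.41 to 6.09). Pros1, protein S, was at 450 CPM in PC-2F and 43.3 CPM in PC, 10.4-fold higher (7.89 to 14). Also higher were Tgfa (38.3 CPM in PC-2F and 0 CPM in PC), Igf1 (35.8 CPM in PC-2F and 0 CPM in PC) and Areg (32.5 CPM in PC-2F and 2.32 CPM in PC). Lif was higher too (60 CPM in PC-2F and 22.4 CPM in PC), but Lif had a log2 ratio of -0.71 without the third PC-2F cluster. IGF binding protein genes had 3 of 9 measured members higher, 2 lower and 4 neither, with a median log2 ratio of 0.23. Of these, 6 were measured in PC itself, 0 higher and 2 lower. Igfbp2 was at 95.8 CPM in PC-2F and 0 CPM in PC and Igfbp5 at 132 CPM in PC-2F and 0 CPM in PC, with 91.8% of the Igfbp5 UMIs in the third PC-2F cluster, while Igfbp3 was at 30.8 CPM in PC-2F and 196 CPM in PC (6.35-fold lower, interval 4.48 to 9.23). Igfbp3 leads the second PC cluster, and its log2 ratio was 3.51 with that cluster left out.

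Axon guidance genes had 9 of 23 measured members higher, 8 lower and 6 neither, with a median log2 ratio of 0.25. Of these, 15 were measured in PC itself, 2 higher and 8 lower. Among semaphorins Sema3d, Sema6a (118 CPM in PC-2F and 0 CPM in PC) and Sema3c (129 CPM in PC-2F and 20.9 CPM in PC, 6.18-fold higher, interval 4.09 to 9.68) were higher. Sema3a (21.7 CPM in PC-2F and 193 CPM in PC, 8.89-fold lower, interval 5.93 to 13.9), Sema3e (22.5 CPM in PC-2F and 105 CPM in PC, 4.68-fold lower, interval 3.08 to 7.36) and Sema6d (13.3 CPM in PC-2F and 52.6 CPM in PC) were lower. Plexins, their receptors, split the same way, with Plxnb1 (30 CPM in PC-2F and 5.41 CPM in PC) and Plxnb3 (164 CPM in PC-2F and 0 CPM in PC, at least 70.7-fold higher) higher. Plxna1 (55 CPM in PC-2F and 136 CPM in PC, 2.48-fold lower, interval 1.86 to 3.34) and Plxna2 (28.3 CPM in PC-2F and 82.7 CPM in PC) were lower. G protein-coupled receptors and their regulators had 11 of 18 measured members higher, 5 lower and 2 neither, with a median log2 ratio of 2.44. Of these, 8 were measured in PC itself, 1 higher and 5 lower. Lpar4, a lysophosphatidic acid receptor, was at 411 CPM in PC-2F and 6.96 CPM in PC (59.1-fold higher, interval 30.9 to 130), and F2r, the thrombin receptor, at 16.7 CPM in PC-2F and 157 CPM in PC (9.42-fold lower, interval 5.94 to 15.8). S1pr3, a sphingosine phosphate receptor, was at 37.5 CPM in PC-2F and 156 CPM in PC (4.17-fold lower, interval 3.00 to 5.89).

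Acute-phase and complement genes had 9 of 12 measured members higher, 3 lower and 0 neither, with a median log2 ratio of 3.02. Of these, 5 were measured in PC itself, 2 higher and 3 lower. Besides Lcn2 and C3, Cp, the copper oxidase ceruloplasmin, was at 1795 CPM in PC-2F (interval 1720 to 1873) and 197 CPM in PC (174 to 223), 9.11-fold higher (7.99 to 10.4), at 1641 to 1994 CPM in all PC-2F clusters. Saa3, serum amyloid A3, was at 84.1 CPM in PC-2F and 0 CPM in PC, and C4b at 150 CPM in PC-2F and 0 CPM in PC, uncertain against its copy C4a. Chemokine and cytokine genes had 9 of 19 measured members higher, 5 lower and 5 neither, with a median log2 ratio of 0.43. Of these, 12 were measured in PC itself, 2 higher and 5 lower. Without the third PC-2F cluster, 6 were higher and 9 lower, with a median of -1.03. Cxcl1 was at 456 CPM in PC-2F and 6.96 CPM in PC (65.6-fold higher, interval 34.3 to 144), at 253 to 951 CPM in all PC-2F clusters, and Ccl5 at 80.8 CPM in PC-2F and 0 CPM in PC (at least 34.8-fold higher). Ccl2 (1528 CPM in PC-2F and 275 CPM in PC, 5.55-fold higher, interval 4.95 to 6.24) and Ccl7 (376 CPM in PC-2F and 148 CPM in PC, 2.55-fold higher, interval 2.15 to 3.03) were higher in the pool, with 82.9% and 99.1% of their PC-2F UMIs in the third cluster. Without that cluster the log2 ratio of Ccl7 was -5.00. Cxcl12 was lower, as given above, and Il33 was at 166 CPM in PC-2F and 366 CPM in PC (2.21-fold lower, interval 1.87 to 2.62).

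Interferon response and antigen presentation genes had 8 of 20 measured members higher, 2 lower and 10 neither, with a median log2 ratio of 0.67. Of these, 14 were measured in PC itself, 2 higher and 2 lower. The class II genes H2-Aa (75.8 CPM in PC-2F and 0 CPM in PC, at least 32.7-fold higher) and H2-Ab1 (75.8 CPM in PC-2F and 0 CPM in PC, at least 32.7-fold higher) had no UMI in PC. H2-K1, of class I, was at 281 CPM in PC-2F and 111 CPM in PC (2.54-fold higher, interval 2.08 to 3.11). Reads of histocompatibility genes can be shared with near-identical copies. Bst2 was lower (28.3 CPM in PC-2F and 153 CPM in PC, 5.41-fold lower, interval 3.74 to 8.03). Against the second PC block alone (251 cells), 0 members of the list were lower, so Bst2 was not called there. Against the first block alone (39 cells), 7 members were lower and the list median was -0.34. Immediate early genes, which also respond to dissociation, had 8 of 23 measured members higher, 3 lower and 12 neither, with a median log2 ratio of 0.54. Of these, 20 were measured in PC itself, 5 higher and 3 lower. Cebpd was at 847 CPM in PC-2F and 88.9 CPM in PC (9.52-fold higher, interval 7.85 to 11.7) and Fos at 167 CPM in PC-2F and 18.6 CPM in PC (9.02-fold higher, interval 5.89 to 14.4), while Jun (102 against 123 CPM, PC-2F against PC), Ier2 (107 against 90.5 CPM) and Dusp1 (65 against 64.9 CPM) were neither.

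Actin cytoskeleton and focal adhesion genes had 2 of 54 measured members higher, 23 lower and 29 neither, with a median log2 ratio of -0.78. Of these, 54 were measured in PC itself, 2 higher and 23 lower. Their levels summed to 32755 CPM in PC-2F and 56121 CPM in PC. Tmsb4x, thymosin β4, which binds actin monomers, was at 1249 CPM in PC-2F (interval 1187 to 1314) and 5501 CPM in PC (5374 to 5631), 4.40-fold lower (4.17 to 4.66). S100a6 was at 496 CPM in PC-2F and 4969 CPM in PC (10-fold lower, interval 9.21 to 10.9). Gsn, the severing protein gelsolin, was at 446 CPM in PC-2F and 2733 CPM in PC (6.12-fold lower, interval 5.59 to 6.72). The annexin genes Anxa1 (497 CPM in PC-2F and 2503 CPM in PC, 5.03-fold lower, interval 4.61 to 5.50) and Anxa2 (1048 CPM in PC-2F and 2488 CPM in PC, 2.37-fold lower, interval 2.22 to 2.54) were lower. Flnc, a filamin of muscle, was at 2.50 CPM in PC-2F and 95.1 CPM in PC (38.1-fold lower, interval 12.7 to 187) and Pdlim1 at 25 CPM in PC-2F and 223 CPM in PC (8.91-fold lower, interval 6.11 to 13.5). Actb, β-actin, did not follow, at 15305 CPM in PC-2F and 14902 CPM in PC. With each cell thinned to 1000 UMIs, a PC-2F cell had a median of 29 UMIs of the list (range 8 to 75) and a PC cell 55 (range 23 to 171), so the ranges overlapped. In the third PC-2F cluster the median was 40. The OPC list gave a median of 10 UMIs (0 to 44) in PC-2F cells and 0 (0 to 5) in PC cells, and a UMI of it was seen in 98.9% of PC-2F cells and 42.7% of PC cells.

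Tubulin and intermediate filament genes had 10 of 31 measured members higher, 7 lower and 14 neither, with a median log2 ratio of 0.12. Of these, 26 were measured in PC itself, 5 higher and 7 lower. Tppp, a tubulin-binding protein of oligodendrocytes, was at 116 CPM in PC-2F and 0 CPM in PC (at least 49.9-fold higher). Tubb2b was at 257 CPM in PC-2F and 27.1 CPM in PC (9.51-fold higher, interval 6.69 to 13.9) and Tubb4a, a myelin-cell tubulin, at 24.1 CPM in PC-2F and 0 CPM in PC (at least 10.4-fold higher). Tuba1a (1093 CPM in PC-2F and 2389 CPM in PC, 2.19-fold lower, interval 2.05 to 2.33), Tubb6 (193 CPM in PC-2F and 478 CPM in PC, 2.47-fold lower, interval 2.12 to 2.89) and Lmna, the nuclear lamin A (521 CPM in PC-2F and 1297 CPM in PC, 2.49-fold lower, interval 2.27 to 2.73), were lower. Vim, vimentin, was at 4381 CPM in PC-2F and 7320 CPM in PC, not 2-fold. Synaptic and secretory vesicle genes had 4 of 11 measured members higher, 1 lower and 6 neither, with a median log2 ratio of 0.78. Of these, 5 were measured in PC itself, 0 higher and 1 lower. The higher ones included Syt11 (83.3 CPM in PC-2F and 12.4 CPM in PC, 6.73-fold higher, interval 3.95 to 12.2) and Rab3a (97.4 CPM in PC-2F and 14.7 CPM in PC, 6.63-fold higher, interval 4.06 to 11.4).

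**Figure D4:**
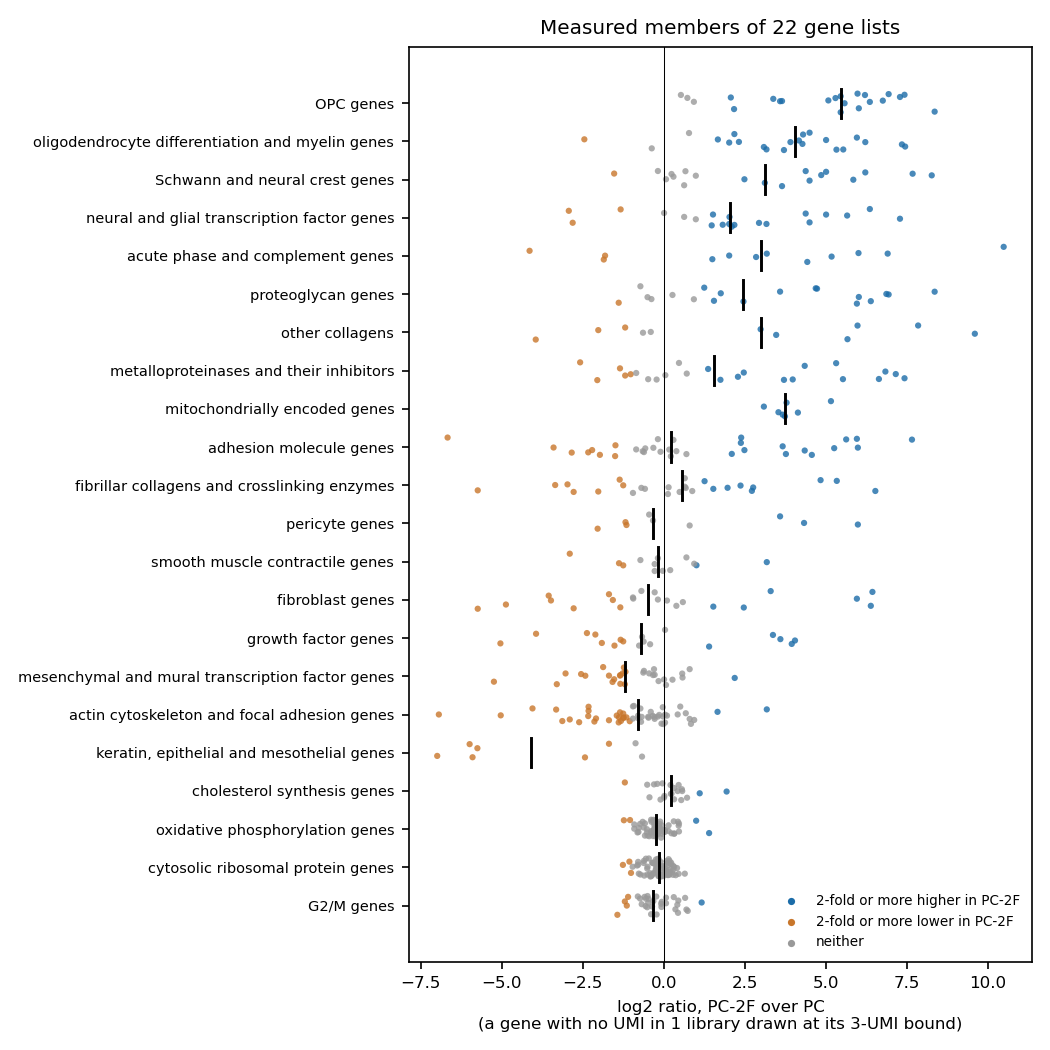
Log2 ratio of PC-2F over PC for each measured member of 22 gene lists (points, with a gene at 0 in 1 library drawn at its 3-UMI bound) and the list median (black bar). Of the list medians drawn, that of the OPC genes (5.46 at the bounds) is furthest right and that of the keratin, epithelial and mesothelial genes furthest left, and ribosomal protein, oxidative phosphorylation and G2/M members cluster near 0.

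Among lists of general metabolism, cholesterol synthesis, which myelin-making cells use heavily, had 2 of 22 measured members higher, 1 lower and 19 neither, with a median log2 ratio of 0.23. Of these, 22 were measured in PC itself, 2 higher and 1 lower. Dhcr7, the last enzyme, was at 102 CPM in PC-2F and 26.3 CPM in PC (3.86-fold higher, interval 2.62 to 5.83). Fatty acid and lipid genes had 8 of 38 measured members higher, 3 lower and 27 neither, with a median log2 ratio of 0.43. Of these, 33 were measured in PC itself, 3 higher and 3 lower. The higher ones included the carrier genes Apod (1291 CPM in PC-2F and 42.5 CPM in PC, 30.4-fold higher, interval 23.2 to 40.5), Fabp5 (430 CPM in PC-2F and 29.4 CPM in PC, 14.6-fold higher, interval 10.5 to 20.9) and Ptgds, a prostaglandin D synthase (214 CPM in PC-2F and 0 CPM in PC, at least 92.3-fold higher). All 3 lower members belong to prostaglandin synthesis: Ptgs1, Ptgs2 (17.5 CPM in PC-2F and 56.4 CPM in PC, 3.23-fold lower, interval 1.96 to 5.52) and Ptges (13.3 CPM in PC-2F and 106 CPM in PC, 7.95-fold lower, interval 4.72 to 14.3). Iron, heme and metallothionein genes had 7 of 15 measured members higher, 3 lower and 5 neither, with a median log2 ratio of 0.48. Of these, 13 were measured in PC itself, 5 higher and 3 lower. Trf, Cp, Lcn2 and the iron importer gene Slc11a2 (121 CPM in PC-2F and 25.5 CPM in PC, 4.73-fold higher, interval 3.22 to 7.13) were higher. Ferritin light chain Ftl1 was lower (243 CPM in PC-2F and 510 CPM in PC, 2.10-fold lower, interval 1.83 to 2.42, with a log2 ratio of 0.40 against the first PC block alone), and ferritin heavy chain Fth1 was at 10431 CPM in PC-2F and 7699 CPM in PC.

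Glycolysis and hypoxia genes had 6 of 27 measured members higher, 7 lower and 14 neither, with a median log2 ratio of -0.03. Of these, 24 were measured in PC itself, 3 higher and 7 lower. Aldoc, the aldolase of glia, was higher. Slc2a3, a glucose transporter, was lower (5.83 CPM in PC-2F and 63.4 CPM in PC, 10.9-fold lower, interval 5.05 to 27.9). The glycolytic enzyme genes Eno2 (1.67 CPM in PC-2F and 21.6 CPM in PC, 13-fold lower, interval 3.28 to 113), Pfkp (9.16 CPM in PC-2F and 49.5 CPM in PC, 5.40-fold lower, interval 2.83 to 11.4) and Tpi1 (224 CPM in PC-2F and 507 CPM in PC, 2.26-fold lower, interval 1.96 to 2.62) were lower. Nuclear genes of oxidative phosphorylation had 2 of 61 measured members higher, 2 lower and 57 neither, with a median log2 ratio of -0.25. Of these, 60 were measured in PC itself, 1 higher and 2 lower. The mitochondrially encoded genes had 7 of 7 measured members higher, 0 lower and 0 neither, with a median log2 ratio of 3.74. Of these, 5 were measured in PC itself, 5 higher and 0 lower. Among them mt-Cytb was at 5851 CPM in PC-2F and 424 CPM in PC (13.8-fold higher, interval 12.7 to 15.1) and mt-Nd4 at 3552 CPM in PC-2F and 265 CPM in PC (13.4-fold higher, interval 12 to 15). In every PC-2F cluster mt-Cytb was at 2393 CPM or more. The share of mitochondrial UMIs is also a measure of RNA quality, it was 1.62% in PC-2F and 0.137% in PC, and its part in the other results was not tested.

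Amino acid, serine and polyamine genes had 4 of 27 measured members higher, 2 lower and 21 neither, with a median log2 ratio of -0.41. Of these, 24 were measured in PC itself, 3 higher and 2 lower. The higher ones were Gatm, the first enzyme of creatine synthesis (589 CPM in PC-2F and 6.96 CPM in PC, 84.6-fold higher, interval 44.3 to 186), and the creatine kinase gene Ckb (1100 CPM in PC-2F and 107 CPM in PC, 10.3-fold higher, interval 8.65 to 12.4), with the polyamine enzyme genes Odc1 (172 CPM in PC-2F and 37.1 CPM in PC) and Sat1 (296 CPM in PC-2F and 111 CPM in PC). Redox and glutathione genes had 5 of 32 measured members higher, 6 lower and 21 neither, with a median log2 ratio of -0.45. Of these, 29 were measured in PC itself, 2 higher and 6 lower. Without the third PC-2F cluster, 10 were lower. Sod3, extracellular superoxide dismutase, was at 167 CPM in PC-2F and 10.1 CPM in PC (16.6-fold higher, interval 9.47 to 31.7) and Gsto1, a glutathione transferase, at 89.9 CPM in PC-2F and 559 CPM in PC (6.22-fold lower, interval 5.07 to 7.68). Ion channel and transporter genes had 12 of 28 measured members higher, 4 lower and 12 neither, with a median log2 ratio of 0.79. Of these, 20 were measured in PC itself, 4 higher and 4 lower. Kcnj10, the potassium channel of glia (34.1 CPM in PC-2F and 0 CPM in PC), Kcna6 (40 CPM in PC-2F and 0 CPM in PC), Slc1a1 (44.1 CPM in PC-2F and 0 CPM in PC) and the mechanosensor Piezo2 (84.9 CPM in PC-2F and 7.73 CPM in PC, 11-fold higher, interval 5.74 to 23.6) were among the higher. Slc38a1, a glutamine carrier (0 CPM in PC-2F and 26.3 CPM in PC), Slc1a5 (11.7 CPM in PC-2F and 71.9 CPM in PC, 6.17-fold lower, interval 3.50 to 11.7), the water channel Aqp1 (33.3 CPM in PC-2F and 85.1 CPM in PC) and Slc16a1 (44.1 CPM in PC-2F and 105 CPM in PC) were the lower ones.

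Few cell cycle genes were called in the pooled comparison. G1/S and replication genes had 1 of 27 measured members higher, 2 lower and 24 neither, with a median log2 ratio of -0.06. Of these, 27 were measured in PC itself, 1 higher and 2 lower. G2/M genes had 1 of 33 measured members higher, 4 lower and 28 neither, with a median log2 ratio of -0.32. Of these, 32 were measured in PC itself, 1 higher and 4 lower. The pool hid differences between clusters. With the first and largest PC-2F cluster alone, 22 of 27 measured G1/S members and 32 of 32 G2/M members were lower. The medians were then -2.10 and -2.86. In thinned cells the median of G2/M UMIs was 0 in that cluster, 10 in the second, and 1 in each of the others. The PC clusters had medians of 1 to 11. Mki67 was at 105 CPM in PC-2F and 76.5 CPM in PC and Top2a at 464 CPM in PC-2F and 285 CPM in PC. Ccnd2, cyclin D2, was lower (160 CPM in PC-2F and 444 CPM in PC, 2.78-fold lower, interval 2.35 to 3.29). Inhibitor, senescence and p53 genes had 4 of 20 measured members higher, 5 lower and 11 neither, with a median log2 ratio of -0.35. Of these, 18 were measured in PC itself, 2 higher and 5 lower. The cyclin-dependent kinase inhibitor gene Cdkn1b was higher (91.6 CPM in PC-2F and 34 CPM in PC, 2.69-fold higher, interval 1.88 to 3.91). The damage response genes Gadd45g (5.83 CPM in PC-2F and 79.6 CPM in PC, 13.7-fold lower, interval 6.40 to 34.8) and Ccng1 (325 CPM in PC-2F and 759 CPM in PC, 2.34-fold lower, interval 2.08 to 2.64) were lower. Cdkn1a, the p21 inhibitor, was at 292 CPM in PC-2F and 339 CPM in PC. ER stress and chaperone genes had 1 of 32 measured members higher, 4 lower and 27 neither (1 higher and 4 lower of the 32 measured in PC itself), and a median log2 ratio of -0.04, with the small heat shock protein gene Hspb1 at 0 CPM in PC-2F and 44.8 CPM in PC (at least 18-fold lower). Lysosome genes had 2 of 35 measured members higher, 3 lower and 30 neither (1 higher and 3 lower of the 34 measured in PC itself), and a median log2 ratio of 0.12, with the cathepsin gene Ctsb at 565 CPM in PC-2F and 1423 CPM in PC (2.52-fold lower, interval 2.30 to 2.75). Cytosolic ribosomal protein genes had 0 of 77 measured members higher, 3 lower and 74 neither, with a median log2 ratio of -0.16. Of these, 77 were measured in PC itself, 0 higher and 3 lower. Proteasome genes had 0 of 30 measured members higher, 1 lower and 29 neither, with a median log2 ratio of -0.25. Of these, 30 were measured in PC itself, 0 higher and 1 lower. Translation factor and ribosome biogenesis genes had 1 of 39 measured members higher, 6 lower and 32 neither, with a median log2 ratio of -0.57. Of these, 39 were measured in PC itself, 1 higher and 6 lower. The lower ones included Eif4ebp1 (72.4 CPM in PC-2F and 357 CPM in PC, 4.93-fold lower, interval 3.91 to 6.27).

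Histone and chromatin regulator genes had 12 of 45 measured members higher, 3 lower and 30 neither, with a median log2 ratio of 0.57. Of these, 37 were measured in PC itself, 5 higher and 3 lower. Chd7, a remodeller known to work with Sox10 in oligodendrocytes, was at 128 CPM in PC-2F and 15.5 CPM in PC (8.29-fold higher, interval 5.19 to 14), and the DNA methyltransferase gene Dnmt3a at 56.6 CPM in PC-2F and 6.96 CPM in PC (8.14-fold higher, interval 4.04 to 18.6). The high-mobility group genes Hmga2 (103 CPM in PC-2F and 703 CPM in PC, 6.81-fold lower, interval 5.64 to 8.28) and Hmga1 (9.16 CPM in PC-2F and 92 CPM in PC, 10-fold lower, interval 5.42 to 20.7) were lower. Imprinted growth genes had 2 of 7 measured members higher, 2 lower and 3 neither, with a median log2 ratio of 0.09. Of these, 6 were measured in PC itself, 1 higher and 2 lower. The higher ones included Grb10, an adaptor that restrains insulin signalling, at 291 CPM in PC-2F and 16.2 CPM in PC (17.9-fold higher, interval 11.6 to 29.4). No Hox gene was measured. Of 25 listed, 20 were at 0 in PC-2F and 25 in PC, and Hoxa5 had the most UMIs, 21 in PC-2F.

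Around the Mtap gene on chromosome 4 (GRCm38, 89137370 to 89181090), 3 neighbouring genes had no UMI in PC-2F. Mtap, which salvages methionine, had 0 UMIs in PC-2F and 53 in PC. Cdkn2a, which encodes the p16 and Arf inhibitors, had 0 in PC-2F and 21 in PC, and Cdkn2b, the p15 inhibitor, 0 in PC-2F and 10 in PC. All PC UMIs of these 3 genes were in the second PC cluster, in 40, 18 and 10 of its 99 cells, and the other PC clusters had none. PC-3F, made from the same cell type with Nkx6-2 as well, also had 0 UMIs of all 3. Several genes further along, though not all, were present in both libraries: Rraga had 98 UMIs in PC-2F and 80 in PC. Rps6 had 307 in PC-2F and 211 in PC, Klhl9 135 in PC-2F and 99 in PC, and Plin2 70 in PC-2F and 131 in PC. Mllt3 had 12 UMIs in PC-2F and 106 in PC, and Dmrta1 12 in PC-2F and 0 in PC. The number of genomic copies was not measured, and the clusters were made from the same counts.

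**Figure D5:**
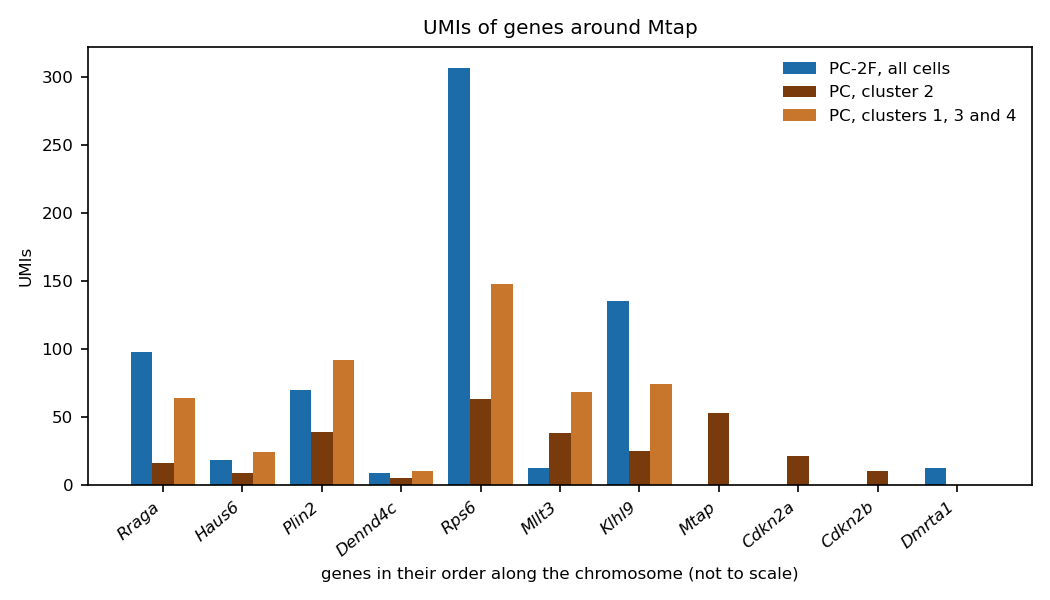
UMIs of 11 genes within 3 megabases of Mtap, in their order along chromosome 4, for all PC-2F cells (blue), the second PC cluster (dark brown) and the other PC clusters (orange). Mtap, Cdkn2a and Cdkn2b had UMIs in the second PC cluster alone (53, 21 and 10), while Rraga, Rps6 and Klhl9 were present in all 3 groups.

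In the other libraries, 28 of the 30 highest genes were at 20 CPM or more in PC-3F, 26 in MEF-2F and 24 in MEF-3F, all transduced, against 18 in primary OPCs and 4 in untransduced fibroblasts (MEF). Of all 8277 measured genes, 85.5% reached that level in PC-3F, 78.9% in MEF-2F, 81.0% in MEF-3F, 77.6% in pOPC and 77.1% in MEF. In PC, 1 of the 30 did, which the choice of the 30 fixes. Some of the highest genes were at 0 in primary OPCs, among them Lcn2 and Serpina3n, which were at 601 and 2670 CPM in PC-3F and 0 CPM in pOPC. Trf was at 6232 CPM in PC-3F and 0 CPM in pOPC, and Col9a1 was at 3670 CPM in PC-3F and 22.1 CPM in pOPC. Olig1 was at 362 CPM in PC-2F and 2765 CPM in pOPC. Of the 30 lowest genes, 10 were at 20 CPM or more in PC-3F, 7 in each of MEF-2F and MEF-3F, 3 in pOPC and 18 in MEF. Lox was at 2471 CPM and Cxcl12 at 1412 CPM in MEF, whereas Krt19 and Krt20 were at 7.59 and 1.26 CPM there. Beyond the 2 populations, 5 genes, Cd276, Igfbp2, Mgll and Ptprz1 among them, were at 0 in PC and above 30 CPM in all 6 other libraries. No gene was at 0 in PC-2F and above 30 CPM in the other 6.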

How the data were processed

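Each library was a matrix of genes by cell barcodes, made from polyadenylated RNA of trypsin-dissociated single cells with a droplet 3′ kit that counts UMIs, per the labels' protocols. The values the authors deposited are whole-number codes of another kind than UMI counts or CPM, on no unit that the labels name. Each was read as the place of a UMI count, from 0, in the text-sorted list of the counts that occur in its block of barcodes. This reading is an inference that no label states. In matrices simulated and decoded in the same way, the largest error of a gene's sum was 7.80% for PC-2F, and 8.26% and 3.46% for the first and second PC blocks. The simulated matrices were built from the decoded counts under the same reading. They cannot show the error if that reading is wrong. Per the submitters' processing notes reads were handled with STAR 2.5.3a, featureCounts 1.6.1, UMI-tools 0.5.3 and bcl2fastq 2.19.1.403 (listed there in no order) and the mm10 genome.

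Barcodes with 500 or more UMIs were kept, so that no PC-2F barcode and 6 of the 296 PC barcodes were left out, and doublets were not called. UMIs were summed over cells, and 0.5 UMIs were added before a log ratio. The 2 populations are 1 library each, so no test, SE or p-value was computed, and where the design assumed UMI counts the decoded ones were used. The genes named were both factors, Nkx6-2, the 30 highest and 30 lowest ratios among genes at 100 CPM and 30 UMIs or more, the cell type markers, and for each list up to 4 higher and 4 lower members. Further list members were named for a known role, after their values were seen, and a few genes are not reported here. Members and the 59 lists (1904 genes) were chosen with earlier results of these data known, so they are descriptions. Clusters came from Leiden clustering (leidenalg 0.10.2, igraph 0.11.9) of each library alone, and other steps from Python 3.11.15 with numpy 2.4.6, pandas 2.3.3, scipy 1.17.1 and matplotlib 3.10.9. Promoters were RefSeq's for GRCm38.p6. Alternatives changed the scaling, minimum level, barcodes, decoding, PC blocks, PC-2F cells and added count, and their effect is given at the end.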

Additional observations from a re-analysis of the deposited data

How the results depend on the processing

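No paired analysis was possible because each population was 1 library. Of 12 alternatives, a trimmed mean of log ratios shifted all ratios by -0.03 on the log2 scale, and together with the minimum level, barcode, sure-count, equal-weight and added-count alternatives it turned the direction of 0 of the 2495 called genes. The trimmed mean, minimum level and added count could not turn a called gene, given how they are computed, so they test nothing here. Counting cells with a value above 0 turned 6, the first PC block (39 cells) 50, the second block 1 and the largest PC-2F cluster 22. Of the 2 alternatives chosen after seeing the data, PC-2F without cluster 3 turned 7 and PC without cluster 2 turned 4. The causes were not tested, other than fewer genes or cells by construction.

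Genes at least 4-fold higher in PC-2F numbered 663, against 244 at a minimum of 100 CPM and 390 with the first PC block. Genes at least 4-fold lower numbered 348, against 134 at 100 CPM and 599 with the largest PC-2F cluster. At 100 CPM, 11 myelin genes were higher, against 19 at 20 CPM, and 4 mesenchymal transcription factors lower, against 16, which became 7 with the first PC block. Lower actin genes were 10 rather than 23 by cells with a value above 0. By those cells the neuronal median was -0.09, Ccl7 -0.68, Cd81 -0.20 and Fn1 -0.16 on the log2 scale, and such shares saturate for genes seen in nearly every cell. With the first PC block the endothelial median was 1.34, Ccng1 0.10, Ftl1 0.40, Itgb5 0.20 and Zic1 0.15. In the largest PC-2F cluster Acta2 was -1.20, Ccl2 -0.12, Ccl7 -4.48 and Lif -4.10. The G1/S and G2/M medians there were -2.10 and -2.86. Without PC-2F cluster 3 Acta2 was -0.70, Ccl7 -5.00, Lif -0.71 and Mmp3 -0.32. Without PC cluster 2 Clu was 0.67, Igfbp3 3.51, Itgb5 0.39 and Perp 1.19. Medians of OPC genes stayed at 4.43 to 8.39 and of myelin genes at 3.11 to 5.90 over all 14 alternatives. The median of 25 of 57 lists took the other sign in 1 or more alternatives, the neuronal and endothelial ones above among them. The chemokine and cytokine median (0.43) was -0.41 at 100 CPM, -0.05 by cells with a value above 0, -0.88 in the largest PC-2F cluster and -1.03 without PC-2F cluster 3. The plasminogen activator and serpin median (-0.94) was 0.76 at 100 CPM. The others, whose medians were -0.41 to 0.82 over all cells, were the astrocyte, pericyte, fibrillar collagen, basement membrane, TGF-β pathway, TGF-β and YAP target, receptor tyrosine kinase, IGF binding protein, axon guidance, interferon, immediate early, adhesion, cholesterol, glycolysis, amino acid, G1/S, p53 and senescence, ER stress, lysosome, ribosomal protein and tubulin lists.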
